A study of Mus musculus with 26 samples.

Results

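Day 2 primordial germ cell-like cells (d2 PGCLC), made in culture and the only germ-line group in this series, were compared with all other sorted cells of the series. The 2 d2 PGCLC libraries were taken by their label and set against the other 24 of the 26 mouse 3' RNA-seq libraries, which fall into 12 groups of 2. The d2 PGCLC came from embryonic stem cells of mixed strain (C57BL/6+129) with the alleles Blimp1-mVenus, stella-ECFP and Rosa26-rtTA. The labels call the stem cells transfected, without naming the construct. They were kept in 2i+LIF, moved off feeders, taken through an epiblast-like (EpiLC) step and induced with EGF at 50 ng/ml, LIF at 1000 U/ml, SCF at 100 ng/ml, and BMP4 and BMP8A at 500 ng/ml each. Cells positive for Blimp1-mVenus were sorted. All other groups came from C57BL/6 mice homozygous for an EGFP-BLIMP1 reporter. Intestinal epithelium was EPCAM+ at E16.5 (reporter-positive), P3 and P14 (6 libraries). Retinal photoreceptor precursors were reporter-positive at P0, reporter-positive and CD73- at P4, and CD73+ at P4, P6 and P10 (10 libraries). The B lineage held splenic B cells of mice aged 8 to 10 weeks and, after stimulation for 3 days (LPS at 10 ng/mL, IL-4 at 2 ng/mL), blasts, pre-plasmablasts (prePB) and plasmablasts (PB; 8 libraries). Strain, reporter line and culture differ between d2 PGCLC and all other groups, so their effects cannot be told apart from cell type. Whether the 2 replicates of a group came from different animals or cultures is not in the labels, and p-values therefore reflect only how these libraries vary, which may be technical.

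Primordial germ cells are the founders of eggs and sperm. In the mouse embryo they are set aside from the epiblast under BMP signals, while neighbouring cells form mesoderm in the primitive streak under WNT and nodal signals. BLIMP1 (encoded by Prdm1), PRDM14 and AP2γ (encoded by Tfap2c) are the transcription factors known to specify them, and the core pluripotency genes stay on or come back on as the mesodermal genes are later shut off. T (brachyury) is a mesodermal factor that is also on in newly specified germ cells.

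Values are RPM (reads scaled to a common library total) as the authors deposited them, and differences are on the log2(RPM + 1) scale, which understates the change of low genes. A gene was called higher or lower than every other group when all 12 differences had 1 sign and a size of at least 1 and the largest of the 12 limma p-values passed 0.05 after Benjamini-Hochberg adjustment. The smallest of the 12 differences is given as the distance to the nearest group. A second contrast set d2 PGCLC against the mean of the intestinal, retinal and B-lineage means. The d2 PGCLC libraries held 1.72 M reads, the fewest of all 26, and 2.70 M reads, against 2.23 M to 6.04 M in the others, and 1 read was worth 0.583 and 0.371 RPM. Values of a few RPM therefore rest on a few reads, and 3 reads, taken here as the floor, stood for 1.75 and 1.112 RPM. The d2 PGCLC replicates had a Pearson correlation of 0.986 across the 14131 genes tested, within the range of the other pairs (0.977 to 0.986). Over those genes the group means of d2 PGCLC were closest to P0 retina (0.746) and to blasts (0.744) and furthest from P10 retina (0.616), which is a description across genes, not a test. In bulk samples fewer cells with a transcript and less of it per cell cannot be told apart.

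The levels of the 3 markers, set in advance, went with the label, but as genes of pluripotency and mesoderm they do not single out germ cells. Pou5f1 (encodes OCT4; Entrez ID 18999; chromosome 17, 35506032 to 35510777, GRCm38.p6) was at 479 and 442 RPM in the 2 d2 PGCLC libraries and at 0 to 2.79 RPM (median 1.111) in the other 24. Nanog (Entrez ID 71950; chromosome 6, 122707489 to 122714633) was at 151 and 147 RPM against 0 to 1.01 RPM (median 0.103). T (Entrez ID 20997; chromosome 17, 8434423 to 8442496) was at 1515 and 1238 RPM against 0 to 7.12 RPM (median 0.303). In all 3 the lower d2 PGCLC library stood far above the highest of the others, and the distances to the nearest group were 7.27, 6.73 and 8.38 (limma adjusted p = 2.77e-12, 1.11e-12 and 2.42e-12). Pou5f1 and Nanog reached 5 RPM in no other library and were tested only through d2 PGCLC, so their p-values are no support for the label.

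Of the 25146 lines with all values filled, both d2 PGCLC libraries lay above the other 24 in 1647 (6.55%) and below them in 350 (1.39%). Among the 14131 genes tested these counts were 1339 (9.48%) and 345 (2.44%). The gap to the nearest other library was at least 1 on the log2 scale in 387 of the lines above and 45 of those below, and at least 3 in 75 above and 1 below. Without d2 PGCLC replicate 2 the lines below numbered 623, and with median-of-ratios scaling 620. The limma test called 346 genes higher than every other group (2.45% of genes tested) and 78 lower (0.552%). Against the mean of the 3 lineages 2602 genes were higher (18.4%) and 2836 lower (20.1%), with a median difference over all genes of -0.02. Shares of gene lists are set beside these percentages as a description. A tested gene that reached 5 RPM in no other library was tested only through d2 PGCLC and lies above the other 24 by construction. Of the 346 higher genes, 82 belong to 1 or more of 23 lists of pathway and cell type genes. Without d2 PGCLC replicate 1 the calls fell to 97 higher and 51 lower, and without replicate 2 to 111 and 67, where the lone library is assumed to vary like the other groups. Scaling by median of ratios, which shifts the median difference to -0.14, gave 308 higher and 124 lower.

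The 15 named genes furthest above every other group were pluripotency genes, mesodermal genes, and secreted factors and a membrane protein of signalling or of early germ cells. Tdgf1, which encodes the nodal co-receptor CRIPTO, was at 689.8 and 690.3 RPM against 0 to 2.196 RPM (median 0.280) in the other libraries. Msgn1, a factor of presomitic mesoderm, was at 252 and 299 RPM and listed at 0 in every other library but 1, a prePB library at 0.0763 RPM. Igfbp3, a secreted binding protein of insulin-like growth factors, was at 525 and 406 RPM against 0 to 3.31 RPM (median 0.298). These 3 genes did not overlap with any other library, and their distances to the nearest group were 8.59, 8.05 and 6.98. Trh, the precursor of thyrotropin-releasing hormone, was at 168 and 163 RPM against 0 to 0.769 RPM (median 0). Rspo3, a secreted amplifier of WNT signals, was at 121 and 133 RPM against 0 to 0.536 RPM (median 0). Fst, which encodes the activin and BMP binder follistatin, was at 179 and 191 RPM against 0 to 1.85 RPM (median 0.310). All 3 were at under 2 RPM in every library outside d2 PGCLC. Hand1, a factor of extraembryonic and lateral mesoderm, was at 83.3 and 176 RPM, and no other library passed 0.699 RPM. The rest of the 15 were Dppa5a, Evx1, Ifitm1, Sall4 and Hoxb1, given with their pathways further on, and Pou5f1, Nanog and T. The sources used here do not say how reads shared with near-identical copies were treated, so the levels of Tdgf1, Pou5f1, Nanog and Dppa5a, which have processed copies in the genome, carry that uncertainty.

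**Figure D1:**
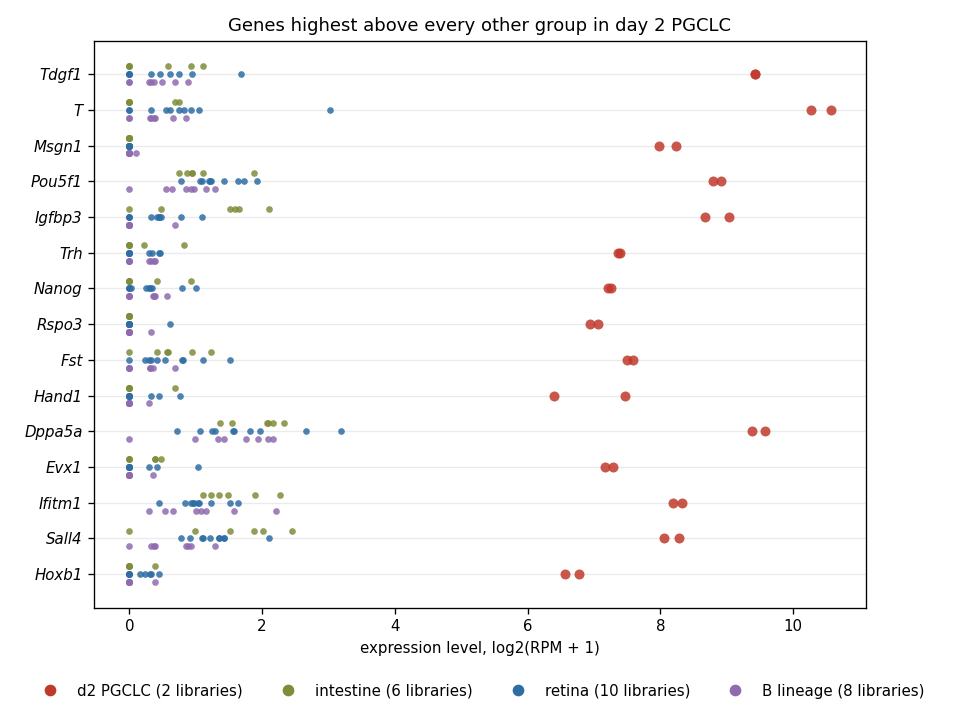
Expression of the 15 named genes furthest above every other group, as log2(RPM + 1) on the horizontal axis, with 1 point for each of the 26 libraries. The 2 d2 PGCLC libraries (red) lie to the right of all 24 others in each row, with T at 1515 and 1238 RPM and the highest other library of T at 7.12 RPM.

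Pluripotency genes were, with the mesodermal genes, the groups with the most calls. Of 24 tested members, 16 were higher than every other group, and 22 were higher than the mean of the 3 lineages (median difference 4.39 against -0.02 for all genes tested). Members such as Pou5f1, Nanog, Sall4 and Gdf3 reached 5 RPM in no other library and were tested only through d2 PGCLC. The shares and the median thus describe the list and do not test it. Dppa5a, an RNA-binding protein of pluripotent cells, was at 668 and 764 RPM against 0 to 8.15 RPM (median 2.18). Sall4, a zinc finger factor that acts with OCT4, was at 266 and 309 RPM against 0 to 4.48 RPM (median 1.15). L1td1, an RNA-binding protein of stem cells, was at 259.5 and 236 RPM against 0 to 6.28 RPM (median 0.351). In all 3 the groups did not overlap. Lower-expressed members with the same pattern included Lin28a, an inhibitor of let-7 maturation, at 53.0 and 63.0 RPM (others up to 2.32 RPM), and Gdf3, a nodal-related ligand, at 26.8 and 30.0 RPM (others up to 0.993 RPM). Zfp42 (REX1), a mark of the naive state, was at only 8.45 and 15.01 RPM, but the other libraries reached no more than 0.618 RPM. Gbx2, Dppa4, Utf1, Tcl1, Nr0b1, Tdh and Trim71 were the other 7 members called besides Tdgf1, Pou5f1 and Nanog. Trim71 lay closest to another group, with 93.3 and 93.4 RPM and an E16.5 intestinal library at 28.7 RPM. Leaving out 1 library ended 2 of these calls, Utf1 without P3 intestine replicate 2 (distance 2.25) and Trim71 without either d2 PGCLC library (1.72).

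Members that did not exceed every group included several that another lineage also used. Sox2, the partner of OCT4, was at 72.2 and 89.3 RPM in d2 PGCLC and at 7.07 to 216 RPM in the retina, but at no more than 2.69 RPM in the intestine and 1.42 RPM in the B lineage. Esrrb, a nuclear receptor of naive pluripotency, was at 46.6 and 63.8 RPM, within the retinal range of 0.179 to 269 RPM. Klf5 was at 59.6 and 46.7 RPM against 93.4 to 178 RPM in the intestine, and Klf2 at 47.2 and 80.1 RPM against 257 RPM in the highest B-cell library. These 4 were higher than the mean of the 3 lineages by 4.04, 4.69, 3.06 and 3.46 (SE 0.30, 0.32, 0.23 and 0.50). Klf4 (6.99 and 16.7 RPM) and Jam2 (9.32 and 10.8 RPM) did not pass that test.

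The 300 bases around the Nanog start (250 before to 50 after; chr6:122707239-122707538, + strand, RefSeq, GRCm38.p6) are shown because they hold, in capitals, the composite OCT4-SOX2 site for which this promoter is known.
Nanog: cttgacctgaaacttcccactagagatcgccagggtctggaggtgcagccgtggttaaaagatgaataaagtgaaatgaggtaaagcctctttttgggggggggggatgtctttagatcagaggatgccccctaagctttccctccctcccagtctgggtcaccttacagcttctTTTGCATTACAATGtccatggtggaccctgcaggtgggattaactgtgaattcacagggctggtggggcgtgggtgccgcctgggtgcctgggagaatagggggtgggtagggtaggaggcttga
The composite motif was searched on both strands as these capitals with any base in the eighth place, a form written to fit this site. It began 75 bases before the start on the gene's strand, and 1 of 27025 RefSeq windows of this length held it, this one. The match is a description of the sequence and not of binding.

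Of the genes that specify primordial germ cells, 7 of 14 tested members were higher than every other group and 11 higher than the mean of the 3 lineages (median 3.10). Prdm14, Dppa3 and Ifitm1 reached 5 RPM in no other library and were tested only through d2 PGCLC. The shares and the median thus describe this list and do not test it. Prdm14 was at 15.7 and 23.7 RPM and at no more than 0.513 RPM elsewhere, a distance of 4.05 (limma adjusted p = 7.28e-12). Tfap2c was at 50.1 and 50.8 RPM against 2.08 to 12.1 RPM in the retina and at most 0.385 and 0.567 RPM in the intestine and B lineage. Dppa3 (stella), which protects germ-line and zygotic methylation, was at 40.2 and 47.8 RPM against 0 to 3.69 RPM (median 0.908). None of the 24 other libraries reached the level of d2 PGCLC in any of these 3. The sources used here do not say how reporter reads were assigned, and the line carries a stella-ECFP allele. Ifitm1 and Ifitm3, membrane proteins long used to mark early germ cells, were at 290.4 and 321 RPM and at 396 and 360.2 RPM. The nearest groups were E16.5 intestine for Ifitm1 (at most 3.85 RPM) and P14 intestine for Ifitm3 (at most 58.7 RPM). Dnd1, an RNA-binding protein needed for germ cell survival, was at 57.7 and 44.5 RPM against 0.618 to 10.4 RPM (median 5.05). Its call was lost without d2 PGCLC replicate 1 (distance 2.195).

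Prdm1 itself, on whose reporter the cells were sorted, did not set d2 PGCLC apart. It was at 28.5 and 24.5 RPM, inside the range of 2.31 to 502 RPM (median 121) in the others. Its log2 difference from the mean of the 3 lineages was -1.43 (SE 0.14, limma adjusted p = 9.85e-09). B cells and blasts lay below d2 PGCLC, with 9.83 ± 0.961 and 2.81 ± 0.699 RPM (mean ± SD, n = 2), and the reporter-positive P4 retina lay highest, with 499 ± 4.52 RPM. Kit, the receptor of the added SCF, was at 12.8 and 17.8 RPM, within the range of the others and 1.42 above the mean of the 3 lineages. The latter call was lost without d2 PGCLC replicate 2 (1.20). Nanos3 and Sox17 did not pass the filter on low values, at 2.33 and 2.22 RPM and at 3.50 and 1.85 RPM.

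Genes of later germ cells were mostly near their floor. Only 5 of 18 passed the filter on low values, and 10 of the 18 were under 1 RPM in both d2 PGCLC libraries. Tdrd5, a tudor protein of the piRNA pathway, was the member called higher than every group, at 36.7 and 28.5 RPM against 0 to 1.15 RPM (median 0.233). Ddx4 (VASA), an RNA helicase of germ cells, was at 13.1 and 8.06 RPM with other libraries up to 9.47 RPM. It was 1.27 above the mean of the 3 lineages, and 0.95 without d2 PGCLC replicate 1, which is not a call. Dazl and Stra8, markers of later germ cells and of meiotic entry, were at 0.583 and 1.112 RPM and at 1.17 and 1.48 RPM, with medians of 1.86 and 0.976 RPM in the others. Piwil2, of the piRNA pathway, and Sycp3, of the synaptonemal complex, were lower than the mean of the 3 lineages by log2 differences of -1.67 and -1.29 (limma adjusted p = 2.56e-05 and 3.45e-04). With a pseudocount of 5 RPM neither was called. Sycp1 and Tex11 were listed at 0 in both d2 PGCLC libraries, which allows up to 1.75 and 1.112 RPM by counting error alone.

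Mesodermal and primitive streak genes were the group with the most genes called. Of 29 tested, 19 were higher than every other group, and 25 were higher and 2 lower than the mean of the 3 lineages (median 4.23). Members such as Evx1, Mixl1 and Fgf8 passed the filter through d2 PGCLC alone, so these shares too are a description. Evx1, a homeobox factor of the posterior streak, was at 143 and 155 RPM against 0 to 1.04 RPM (median 0). Mixl1, a homeobox factor of mesendoderm, was at 46.0 and 55.2 RPM against 0 to 0.673 RPM (median 0). Fgf8, the growth factor that drives cells out of the streak, was at 74.9 and 88.3 RPM against 0 to 1.397 RPM (median 0.0484). Each of the 3 had a median of under 0.1 RPM in the other libraries. Hox genes of the 3′ end of their clusters were called as well: Hoxb1 was at 93.2 and 109 RPM and Hoxb2 at 46.6 and 46.3 RPM, with Hoxb1 at no more than 0.366 RPM elsewhere and Hoxb2 reaching 10.8 RPM in P3 intestine. Mesp1, a factor of cardiac and early mesoderm, was at 36.3 and 56.2 RPM, and Snai1, the repressor of E-cadherin, at 22.7 and 25.2 RPM. Lhx1 (12.8 and 17.1 RPM), Nkx1-2 (66.5 and 34.1 RPM) and Cdx4 (6.41 and 6.85 RPM) were called too. The call of Cdx4 was lost with a pseudocount of 5 RPM. That of Snai1 was lost without d2 PGCLC replicate 2 (distance 2.21), blast replicate 2 (2.04) or prePB replicate 2 (1.64).

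Not all mesodermal genes were high. Tbx6, which drives paraxial mesoderm, was at 4.08 and 3.34 RPM, inside the range of the others. Kdr, the VEGF receptor of blood and vessel precursors, was at 0.583 and 2.22 RPM, with the retina at 15.5 to 162 RPM, and its difference from the mean of the 3 lineages was -1.399 (limma adjusted p = 0.0038). Dll1, a Notch ligand of presomitic mesoderm, was at 2.33 and 6.67 RPM, a difference of -1.24 (limma adjusted p = 0.00169). Without d2 PGCLC replicate 1 neither Kdr (-0.89) nor Dll1 (-0.64) was called. Gsc and Tbx4, of anterior streak and of allantois, did not pass the filter on low values. Cdx1 and Cdx2, posterior factors that the intestine also uses, were at 82.7 and 64.5 RPM and at 30.9 and 30.8 RPM against 166 to 302 RPM and 25.9 to 46.0 RPM in the intestine. In the retina and B lineage the highest library of Cdx2 was at 0.233 RPM.

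**Figure D2:**
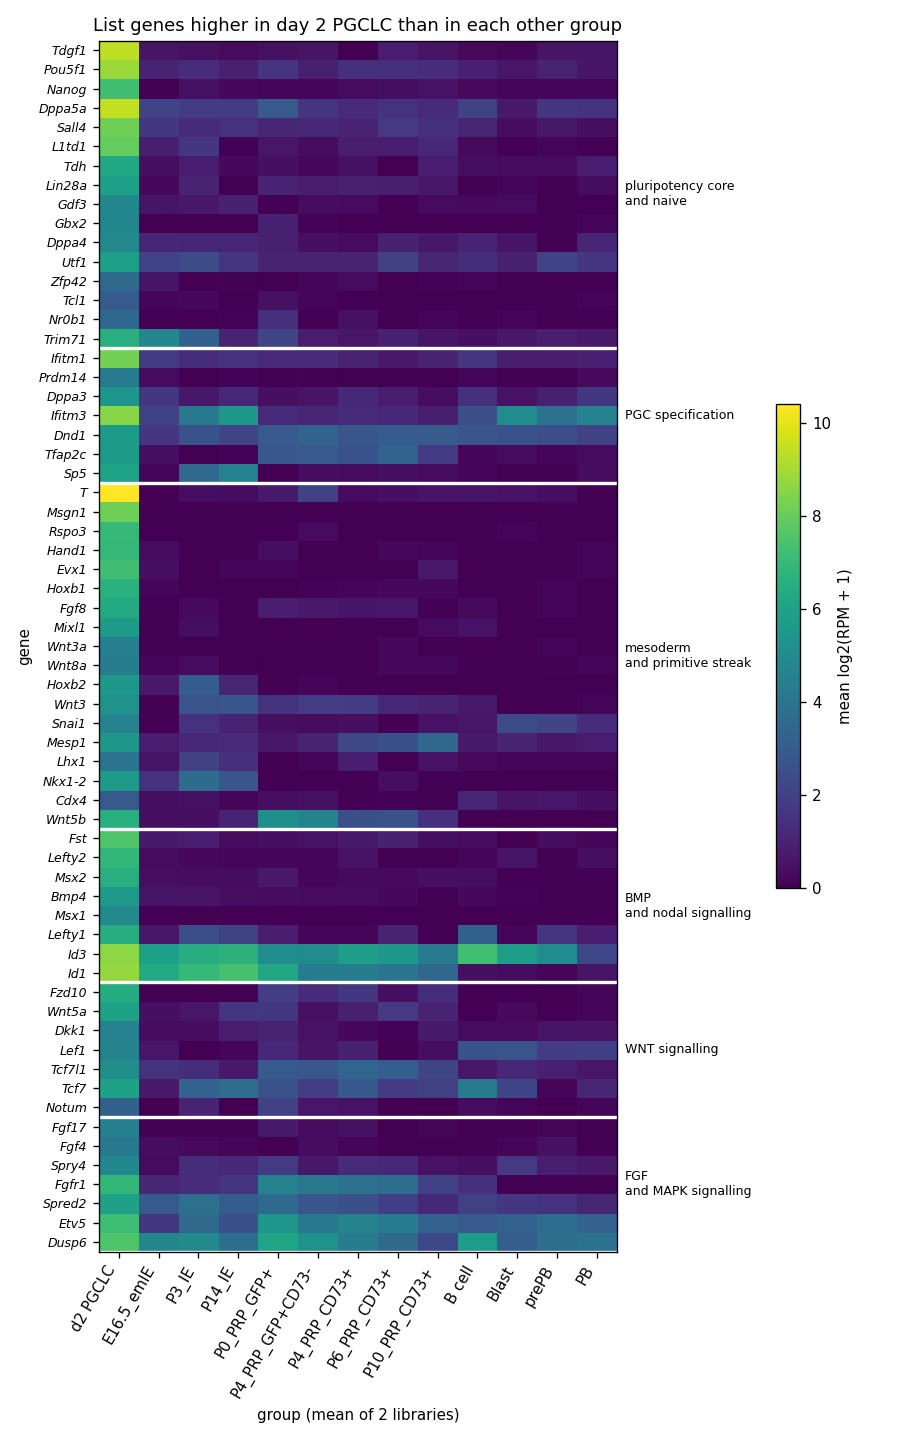
Mean log2(RPM + 1) of the 2 libraries of each of the 13 groups for 63 genes of 6 lists called higher in d2 PGCLC than in every other group, with groups on the horizontal axis and genes on the vertical axis by list (a gene of several lists is drawn once). The d2 PGCLC column is the brightest in every row, and Id3, Dusp6, Id1 and Etv5 have the highest medians over the other 24 libraries (50.4, 17.0, 14.04 and 10.1 RPM).

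WNT pathway genes were called at both ends of the pathway, ligands and nuclear effectors. Of 25 tested, 13 were higher than every other group, and 18 were higher and 1 lower than the mean of the 3 lineages (median 3.43). Members such as Wnt3a, Wnt8a, Wnt5a, Rspo3, Dkk1 and Fzd10 were tested only through d2 PGCLC, so these shares too are a description. The ligands Wnt3 (37.9 and 38.6 RPM), Wnt3a (22.1 and 21.1 RPM), Wnt8a (24.5 and 17.1 RPM), Wnt5a (53.6 and 71.9 RPM) and Wnt5b (102 and 85.3 RPM) were all called. Of these ligands Wnt5b lay closest to another group, with P0 retina up to 42.9 RPM. The receptor Fzd10 was at 85.1 and 89.0 RPM against 0 to 3.96 RPM (median 0). The nuclear effectors Lef1, Tcf7 and Tcf7l1 were at 23.3 and 25.2 RPM, 67.6 and 56.3 RPM and 30.3 and 40.0 RPM, each above the other 24 libraries. Among the known targets and feedback inhibitors, Sp5 was at 82.4 and 51.2 RPM, Dkk1 at 20.4 and 26.8 RPM and Notum at 6.99 and 10.4 RPM. Calls that lay near another group depended on single libraries. Without d2 PGCLC replicate 1, Wnt5b (distance 1.24), Sp5 (1.107), Tcf7 (1.55) and Tcf7l1 (1.97) were not called. Without replicate 2 this held for Wnt5b (1.50) and Tcf7l1 (1.58). Leaving out P0 retina replicate 1 ended the calls of Wnt5b (1.10) and Notum (1.01), P14 intestine replicate 1 that of Sp5 (1.31), and CD73+ retina replicate 1 of P4 or P6 that of Tcf7l1 (1.50 and 1.78). With a pseudocount of 0.5 RPM, Wnt5b, Sp5, Tcf7l1 and Notum were not called. Axin2, another direct target, was at 50.1 and 36.0 RPM and above every other library (28.8 RPM in P14 intestine), but its distance of 0.79 did not pass the test (limma adjusted p = 0.529). Ctnnb1, which encodes β-catenin, was at 766 and 729 RPM, inside the range of the intestine and retina.

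The promoters of T, Msgn1 and Sp5, known targets of WNT signals, are shown because all 3 hold the core letters bound by LEF1 and TCF factors (CTTTGA, in capitals, on either strand). Each window runs from 250 bases before to 50 after the RefSeq start (GRCm38.p6): chr17:8434173-8434472 (+) for T, chr12:11208899-11209198 (-) for Msgn1 and chr2:70474673-70474972 (+) for Sp5. In Msgn1 the BLIMP1 core letters GTGAAAG are capitals too.
T: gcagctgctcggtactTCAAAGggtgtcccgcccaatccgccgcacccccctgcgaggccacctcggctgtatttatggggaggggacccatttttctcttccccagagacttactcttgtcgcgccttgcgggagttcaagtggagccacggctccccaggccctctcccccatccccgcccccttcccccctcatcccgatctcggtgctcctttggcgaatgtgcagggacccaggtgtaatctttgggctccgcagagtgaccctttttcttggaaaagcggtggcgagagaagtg
Msgn1: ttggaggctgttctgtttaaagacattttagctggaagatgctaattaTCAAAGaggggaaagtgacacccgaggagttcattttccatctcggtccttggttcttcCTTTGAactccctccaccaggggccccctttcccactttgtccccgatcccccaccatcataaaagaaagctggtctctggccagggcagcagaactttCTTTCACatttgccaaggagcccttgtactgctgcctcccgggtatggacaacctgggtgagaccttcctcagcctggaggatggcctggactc
Sp5: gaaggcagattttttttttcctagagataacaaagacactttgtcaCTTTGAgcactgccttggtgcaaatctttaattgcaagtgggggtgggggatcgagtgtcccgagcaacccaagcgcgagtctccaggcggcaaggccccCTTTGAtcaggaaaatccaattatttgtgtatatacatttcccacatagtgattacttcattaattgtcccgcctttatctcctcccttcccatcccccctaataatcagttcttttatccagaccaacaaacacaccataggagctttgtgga
The LEF/TCF letters began 234 bases before the start in T (opposite strand), 202 (opposite) and 143 (same strand) before it in Msgn1, and 204 and 104 (both on the same strand) in Sp5. The BLIMP1 letters lay 44 bases before the start of Msgn1 on the opposite strand. No match overlapped another. Such matches are common: CTTTGA was in 16.18% of all 27025 windows, in 12.3% of the 10951 windows of genes tested and in 34 of the 253 windows of genes higher than every group (13.44%). The T-box letters TCACACC were in 3.38% of windows of genes tested and 3.16% of those of the higher genes, the octamer ATGCAAAT in 1.42% and 1.98%, and GTGAAAG in 3.52% and 2.77%. The shares of the higher genes thus lay near those of all genes tested.

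In the BMP and nodal pathways 1 ligand, secreted inhibitors and targets were called. Of 27 tested, 8 were higher than every other group (Bmp4, Lefty1, Lefty2, Fst, Msx1, Msx2, Id1 and Id3) and 17 were higher than the mean of the 3 lineages (median 2.04). Bmp4, Lefty2, Fst, Msx1 and Msx2 were tested only through d2 PGCLC, so the shares and the median describe the list and do not test it. Bmp4 was at 43.9 and 52.8 RPM against 0 to 1.17 RPM (median 0.0997). The nodal inhibitors Lefty1 and Lefty2 were at 97.6 and 80.8 RPM and at 118 and 116 RPM, and no other library passed 8.75 and 1.06 RPM. Msx2 was at 94.4 and 96.4 RPM, Id1 at 450.3 and 413 RPM and Id3 at 417 and 386 RPM, all 3 known targets of BMP signals. The Id genes were widely expressed elsewhere, up to 173 RPM for Id1 in P14 intestine and 161 RPM for Id3 in B cells, and their distances were 1.36 and 1.39 (limma adjusted p = 0.0269 and 7.72e-04). The call of Id1 was lost without either d2 PGCLC library (1.30 and 1.42), without either P14 intestinal library (1.41 and 1.31), without P3 intestine replicate 2 (1.36) and with median-of-ratios scaling (1.12), while that of Id3 was kept. Nodal itself was at 44.3 and 41.1 RPM and above every other library (17.4 RPM), but missed the test against every group (limma adjusted p = 0.192). The type 1 BMP receptor Bmpr1a was at 97.9 and 97.9 RPM, within the retinal range of 73.2 to 130.0 RPM. Smad1, Smad4 and Smad5 were at 12.8 and 21.5 RPM, 100.2 and 98.6 RPM and 33.2 and 40.0 RPM, with differences from the mean of the 3 lineages of 0.87, -0.04 and 0.17, none of which reached 1. Without d2 PGCLC replicate 1 the difference of Smad1 was 1.23 and was called.

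FGF ligands and feedback genes of the MAPK cascade were called. Of 19 tested, 8 were higher than every other group, and 13 were higher and 1 lower than the mean of the 3 lineages (median 2.63). Fgf4, Fgf8 and Fgf17 were tested only through d2 PGCLC, so these shares too are a description. Besides Fgf8, the ligands Fgf17 (26.8 and 17.8 RPM) and Fgf4 (15.7 and 18.9 RPM) were called, each with under 1 RPM in every other library. Fgfr1 was at 131 and 106 RPM and at no more than 23.98 RPM elsewhere, while Fgfr2, Fgfr3 and Fgfr4 were at 2.33 and 5.19 RPM, 4.08 and 6.86 RPM and 0.583 and 0 RPM. Their intestinal ranges were 4.94 to 55.5 RPM, 10.4 to 24.6 RPM and 3.81 to 20.2 RPM. Fgfr4 was the 1 lower gene, at -1.01, and was not called without any 1 of 7 libraries, d2 PGCLC replicate 2 among them (-0.68). Fgfr2 was called higher only without d2 PGCLC replicate 1 (1.01). Dusp6, a phosphatase of ERK, was at 213 and 161 RPM and Etv5, a target of FGF signals, at 137 and 152 RPM. P0 retina was the nearest group to both, up to 72.0 and 44.7 RPM. Without d2 PGCLC replicate 1 neither was called (distances 1.26 and 1.77), and Etv5 was also not called without d2 PGCLC replicate 2 (1.62) or either P0 retinal library (1.67 and 1.73). The kinase gene Mapk3 (67.6 and 71.9 RPM) did not reach a difference of 1 from the mean of the 3 lineages. Of the receptors for the other added cytokines, Lifr was at 16.9 and 26.7 RPM, Il6st, its signalling partner, at 37.9 and 38.6 RPM, and Egfr at 1.75 and 2.22 RPM. The difference of Lifr from the mean of the 3 lineages, 1.39, was not called without d2 PGCLC replicate 2 (1.08). Jak1 was at 49.5 and 49.3 RPM, below every other library (lowest 56.9 RPM), but its distance of -0.26 did not pass the test.

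Most epiblast and adhesion genes were higher than the mean of the 3 lineages. Of 17 primed epiblast genes tested, 5 were higher than every other group, and 13 were higher and 1 lower than the mean of the 3 lineages (median 2.78). Zscan10 was at 75.7 and 62.3 RPM against 0 to 1.55 RPM (median 0.522). Fgf5, a defining gene of the primed state, did not pass the filter on low values (3.50 and 1.85 RPM), and Pou3f1 was at 2.91 and 1.85 RPM. Otx2, which antagonises germ cell entry and also drives photoreceptor fate, was at 4.66 and 2.97 RPM against 589.5 to 2468 RPM in the retina, and at most 10.8 and 6.50 RPM in the intestine and B lineage. Of 18 adhesion and cytoskeleton genes, 4 were higher than every other group, and 15 were higher and 1 lower than the mean of the 3 lineages (median 2.08). Fn1, which encodes fibronectin, was at 428 and 679.5 RPM against 0 to 96.0 RPM (median 3.18), and Lamb1, a laminin chain, at 218 and 205 RPM against 0 to 12.7 RPM (median 1.77). Epcam was at 164 and 148 RPM and Krt8 at 344 and 326 RPM, between the intestine (717 to 1087 RPM and 1009 to 3457 RPM) and the other lineages, and Vim, an intermediate filament of mesenchyme, was above every library at 631 and 661 RPM without passing the test against every group (limma adjusted p = 0.551). Zeb1, a mesenchymal repressor, was at 1.17 and 1.85 RPM against 32.5 to 116 RPM in the retina and 14.5 to 44.5 RPM in the B lineage.

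Among regulators of DNA methylation and chromatin, few genes stood outside all groups. Dnmt3b, a de novo methyltransferase, was the 1 of 10 genes of the methylation list called, at 76.9 and 96.0 RPM against 2.58 to 32.3 RPM (median 11.0). Its distance to P3 intestine was 1.80 (limma adjusted p = 0.0104). The call was lost without either d2 PGCLC library (1.95 and 1.64) and without replicate 2 of P3 intestine (1.39), E16.5 intestine (1.70) or P0 retina (1.80). Tet1 and Tet3, dioxygenases of methylcytosine, went opposite ways against the mean of the 3 lineages, by 3.03 and -2.55 (limma adjusted p = 4.03e-09 and 3.33e-10). Tet1 was at 33.8 and 51.0 RPM, overlapping with the retina at 18.2 to 36.6 RPM, and at most 3.33 and 2.61 RPM in the intestine and B lineage. Tet3 was at 5.24 and 3.34 RPM, with 65.7 to 193 RPM in the retina. Dnmt3a (40.2 and 47.1 RPM) and Dnmt1 (107 and 91.9 RPM) did not reach a difference of 1. Of 35 chromatin genes 1 was called against every group and 17 were higher than the mean of the 3 lineages (median 0.89). The 1 was Lin28b, an inhibitor of let-7 maturation placed in that list, at 62.3 and 69.0 RPM against 0 to 1.83 RPM (median 0.342). The Polycomb methyltransferase Ezh2 was at 232 and 212 RPM, inside the range of the others. Its difference of 1.02 fell under 1 with median-of-ratios scaling (0.87) and without d2 PGCLC replicate 1 (0.96), P14 intestine replicate 2 (1.00) or P0 retina replicate 2 (0.99). Hells, a chromatin remodeller needed for DNA methylation, was at 133 and 111 RPM and above every other library (74.8 RPM), without passing the test (limma adjusted p = 0.263).

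In metabolism single genes stood out from all groups. Slc2a3, the high-affinity glucose transporter GLUT3, was the 1 of 21 glycolysis genes called, at 644 and 560.1 RPM against 0 to 76.3 RPM (median 13.4). B cells were its nearest group, at a distance of 3.09 (limma adjusted p = 1.59e-06). The list median was 0.25, and 8 of the 21 were higher than the mean of the 3 lineages. Tdh, threonine dehydrogenase, the enzyme mouse stem cells use to feed one-carbon metabolism, was at 58.3 and 99.0 RPM against 0 to 1.35 RPM (median 0.334). Asns, asparagine synthetase, was called at 371 and 381 RPM, with prePB up to 207 RPM and a distance of 1.03. This was lost with no filter, with median-of-ratios scaling (0.50), and without either d2 PGCLC library (1.05 and 1.01) or prePB replicate 2 (0.85). These were the 2 calls among 23 genes of serine, one-carbon and amino acid metabolism, of which 16 were higher and 2 lower than the mean of the 3 lineages (median 1.47). Gldc, the glycine decarboxylase, was at 142 and 132 RPM and shared with the retina (115 to 259 RPM), while the intestine and B lineage did not pass 1.79 and 1.21 RPM. Mthfd1 was at 314 and 296 RPM and above every other library (199.8 RPM), at a distance of 0.68. Of 15 sterol and fatty acid genes 2 were higher and 2 lower than the mean of the 3 lineages, near the shares of all genes.

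Cell cycle genes were higher than the mean of the 3 lineages in 23 of 33 cases and lower in 1 (median 1.37), and 13 of the 33 lay above all 24 libraries, against 9.48% of all genes tested. Only Ccne1, which encodes cyclin E1, passed the test against every group, at 94.4 and 82.7 RPM with blasts up to 47.4 RPM (limma adjusted p = 0.0101). That call was lost with median-of-ratios scaling (1.10) and without either d2 PGCLC library (1.30 and 1.49) or blast replicate 1 (0.88). Bub1, a mitotic checkpoint kinase, was at 154 and 149 RPM with P0 retina up to 99.1 RPM. Mcm2, a subunit of the replicative helicase, was at 371 and 348 RPM with blasts up to 238 RPM. The older retina was low, with Bub1 down to 0.336 RPM at P10. Cdkn2b, a CDK inhibitor, was at 0 and 1.112 RPM against 55.2 to 73.5 RPM in the intestine and up to 85.8 RPM in prePB (difference -3.14, limma adjusted p = 4.79e-08).

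Genes of antigen presentation and interferon were split. Of 20 tested, 7 were higher and 8 lower than the mean of the 3 lineages (median -0.35). B2m, the light chain of MHC class I, was at 78.6 and 91.2 RPM, near the upper end of the retina (14.3 to 96.9 RPM) and far below the intestine (456 to 1349 RPM) and B lineage (4524 to 10453 RPM). H2-D1, a class I heavy chain, was at 10.7 and 12.4 RPM against 3.76 to 9.99 RPM in the retina and 219 to 439 RPM in the B lineage. Irf1 was at 189 and 182 RPM and above every other library (123 RPM in B cells), but not past the test (limma adjusted p = 0.448). Of 13 imprinted genes, Peg3 (441 and 350.3 RPM) and Peg10 (14.6 and 12.2 RPM), both expressed from the paternal copy, were called higher than every group. Peg3 was at 25.4 to 63.6 RPM in the retina and 1.93 RPM at most in the B lineage.

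Markers of other cells that a sorted embryonic culture could hold were compared in the same way, and their part in the results above was not tested. The 10 endoderm markers summed to 30.3 and 28.2 RPM against 1.16 to 1718 RPM in the others (median 6.09). Gata4 (9.90 and 10.8 RPM), Gata6 (6.99 and 7.41 RPM) and Dab2 (4.66 and 5.19 RPM), factors and an adaptor of primitive endoderm that are also made elsewhere, gave most of that sum, and were inside the ranges of the others. Sox17 and Sox7 (2.91 and 1.112 RPM) were low but above all 24 other libraries, which did not pass 0.390 and 0.519 RPM. Afp, Ttr and Hnf4a, made by visceral endoderm among others, were the 3 of the 10 listed at 0 in both d2 PGCLC libraries. Blood and vessel markers summed to 7.57 and 10.6 RPM (median of the others 88.1), with 5 of 10 at 0, among them Ptprc and Cdh5. Etv2, a factor of early vessel and blood precursors, was at 5.24 and 4.26 RPM with no other library above 0.265 RPM, and did not pass the filter on low values. Neural markers summed to 18.2 and 15.01 RPM (median of the others 12.9), with 3 of 8 at 0. Nes, an intermediate filament of progenitors, gave most of it (9.90 and 10.8 RPM), and Pax6 was at 1.75 and 0.927 RPM against 22.2 to 262 RPM in the retina. Fibroblast and feeder markers summed to 32.3 and 30.6 RPM against 1.395 to 112 RPM elsewhere (median 7.46). Of these Pdgfrb was called higher than every group (14.7 and 11.1 RPM), while Dcn and Lum were at 0. Pdgfrb was not called without P14 intestine replicate 2 (distance 1.31), P0 retina replicate 1 (1.78) or prePB replicate 2 (1.88). Of the 10 extraembryonic and amnion markers 6 were tested. Those higher than every other group were Hand1, Gata3 (25.6 and 25.9 RPM), Gata2 (12.2 and 14.8 RPM) and Wnt6 (10.5 and 10.8 RPM). Outside d2 PGCLC these 4 reached at most 0.699, 4.01, 3.73 and 0.899 RPM. They passed the filter of 5 RPM through d2 PGCLC alone, so 4 of 6 is not a share to compare with other lists. The 10 markers of that list summed to 136 and 234 RPM, mostly Hand1, while the trophoblast genes Elf5, Prl3d1 and Tpbpa were at 0 in both libraries. Hand1 is also expressed in mesoderm.

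**Figure D3:**
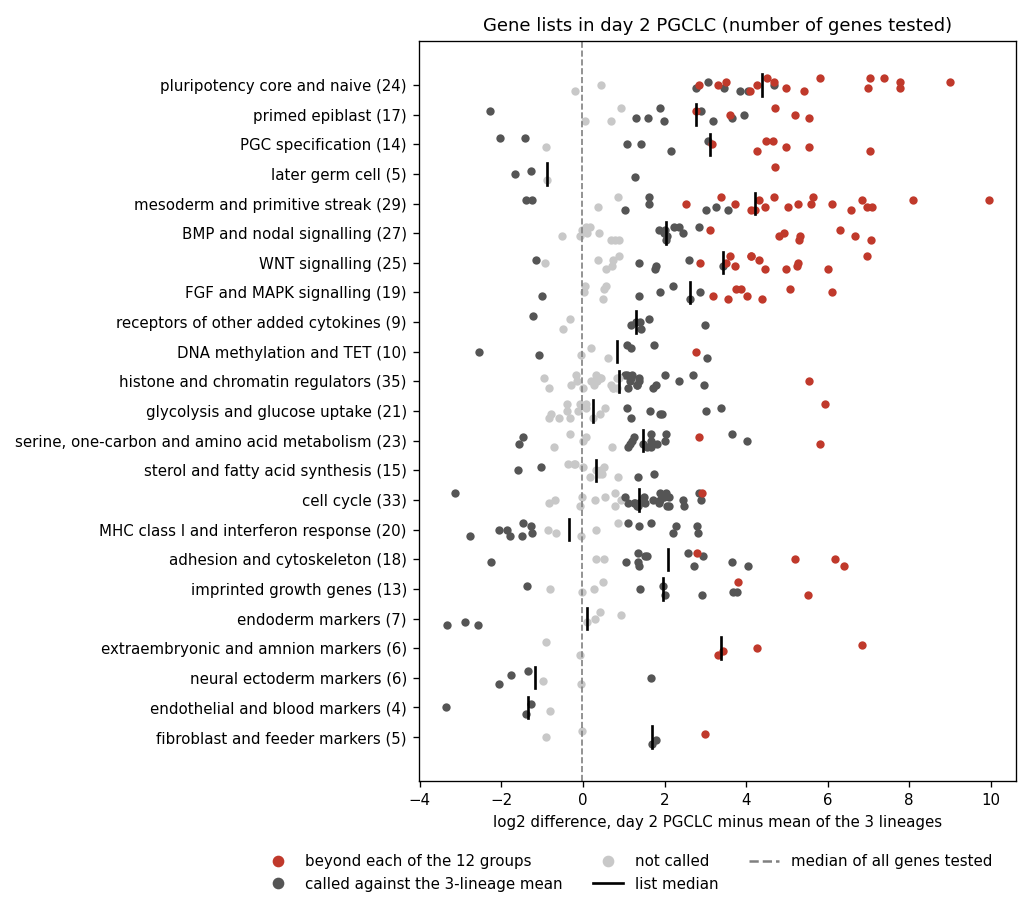
Log2 difference between d2 PGCLC and the mean of the 3 lineages for each tested gene of the 23 lists, with 1 point per gene, black bars at list medians and a dashed line at the median of all genes tested (-0.02). Red points are genes beyond each of the 12 other groups, and they are most numerous in the pluripotency (16 of 24) and mesoderm (19 of 29) rows.

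The 78 genes lower than every other group were fewer and lay nearer to the other groups than those higher. The 2 directions are not alike by design. A lower gene must be expressed in all 12 other groups, and its distance is limited by the floor at 0 RPM. A higher gene may be at 0 in all of them. The contrast between the 2 counts is therefore not read as a result. The predicted gene Gm19592, which the naming rule leaves out and which is given here after its values were seen, lay furthest out, at 1.17 and 0.371 RPM against 117 to 1021 RPM (distance -6.18, limma adjusted p = 1.55e-13). Among the named genes this was Tmsb4x, which encodes the actin-binding peptide thymosin β4 (Entrez ID 19241; chromosome X, 167207093 to 167213479). It was at 91.5 and 110.1 RPM in d2 PGCLC and at 803 to 7778 RPM (median 2424) in the others, so that even the lowest library, of PB, was several times higher (distance -3.06, limma adjusted p = 1.87e-12). Prkca, which encodes protein kinase Cα, was at 2.91 and 1.85 RPM against 15.9 to 219 RPM (median 44.2). Both were present at 10 RPM or more in every library outside d2 PGCLC. St3gal1, a sialyltransferase, was at 2.33 and 3.34 RPM against 14.4 to 409.8 RPM (median 57.5), and highest in the intestine (316 to 409.8 RPM). Mxd4, a MAX partner that opposes MYC, was at 4.08 and 3.71 RPM against 18.5 to 187 RPM (median 69.0). Adam10, a sheddase that cleaves Notch among others, was at 1.17 and 1.112 RPM against 6.73 to 17.6 RPM (median 12.3). Its level varied little among the other groups, and the d2 PGCLC libraries were both at the value of 2 to 3 reads. Rap1gap2, Snx25, Rab30, Mfsd6, Plcxd2, Atxn1 and AY074887 completed the named genes, with 0.583 and 0.371 RPM for Rap1gap2 and 4.08 and 4.08 RPM for Snx25 against at least 7.07 and 18.4 RPM in the others. Atxn1 was not called with a pseudocount of 5 RPM or with quantile normalization.

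**Figure D4:**
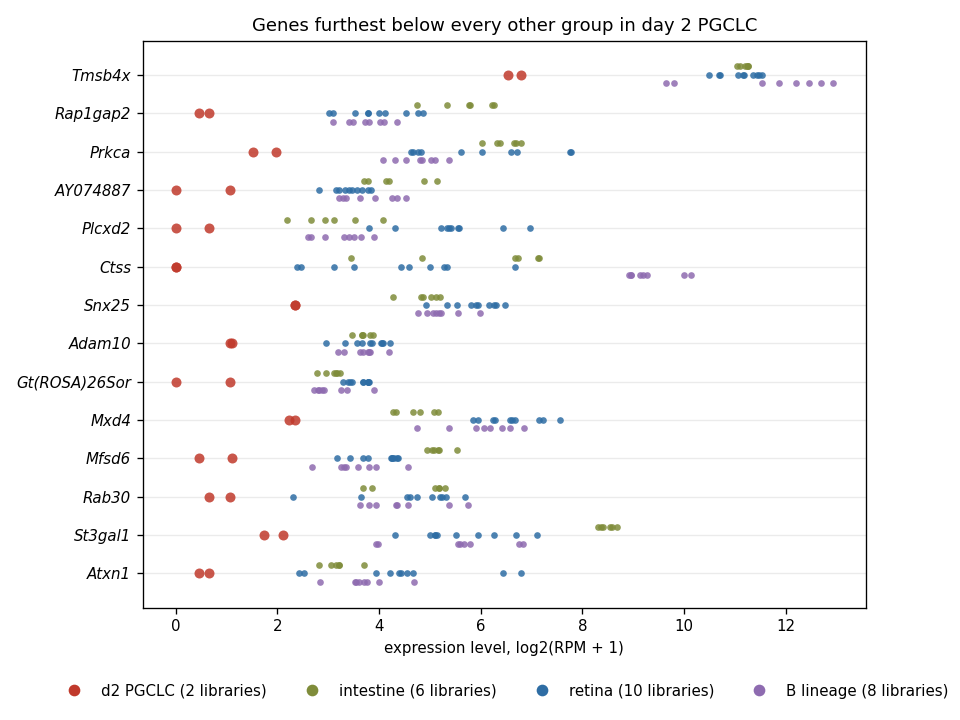
Expression of the 14 named genes furthest below every other group, as log2(RPM + 1) on the horizontal axis, with 1 point for each of the 26 libraries. The 2 d2 PGCLC libraries (red) lie to the left of all others in each row, and Tmsb4x is the only row in which they exceed 10 RPM.

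The transcript of the Rosa26 locus, Gt(ROSA)26Sor, was also among them. It was at 0 and 1.112 RPM against 5.62 to 13.9 RPM (median 8.67) in the others, with little spread between lineages (distance -2.22, limma adjusted p = 5.41e-05; with a pseudocount of 5 RPM it did not pass). The d2 PGCLC line carries Rosa26-rtTA, an insertion at this locus, and no other group does, so allele and cell type cannot be told apart here. Further genes called lower, chosen for mention after their values were seen, were Xbp1, a factor of the secretory pathway that plasma cells need, at 10.5 and 17.4 RPM against 36.6 to 1843 RPM (median 173), and 2 proteins of the endoplasmic reticulum. Of those, the disulfide isomerase Pdia4 was at 4.08 and 15.6 RPM and Os9, which sorts misfolded proteins, at 9.32 and 11.5 RPM. The groups nearest to the lower genes were most often PB (18 of 78), in whose libraries the lines used summed to only 688942 and 650799 RPM, since lines with missing values, immunoglobulin genes among them, were not used here. Among the 346 higher genes the nearest group was most often P0 retina (75) or E16.5 intestine (46).

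Genes missing from d2 PGCLC alone were few. In 27 lines (0.107%) both d2 PGCLC libraries were listed at 0 and all 24 others above 0, and in only 7 of these were all others at 1 RPM or more. Taking 1 d2 PGCLC library alone raised the count to 47 (without replicate 1) and 111 (without replicate 2). Ctss, which encodes the lysosomal protease cathepsin S, was the named gene with all others above the 3-read floor of the shallower d2 PGCLC library (4.24 to 1119 RPM (median 101), with 483 to 1119 RPM in the B lineage). Pde2a, a phosphodiesterase, was at 1.17 to 60.4 RPM (median 3.76) in the others, and Cd1d1, which presents lipids to NKT cells, at 1.15 to 109.8 RPM (median 16.4). Ctss and Pde2a passed the test against every group, as did Nmnat3 and Mmgt2, while Cd1d1 missed it (limma adjusted p = 2.30e-04 and 0.0127 for the first 2 and 0.173 for Cd1d1). With a pseudocount of 5 RPM, which weighs low values less, none of these 4 was called, and without either d2 PGCLC library, of these 4 only Ctss was. Leaving out PB replicate 1 ended the calls of Pde2a (-1.12) and Mmgt2 (-0.95) and PB replicate 2 that of Nmnat3 (-1.09), and Pde2a was also lost without 4 other libraries (-1.34 to -1.58). The others named by the rule were Nmnat3, Mmgt2, Cd52, Spata2l, Cd53 and Ccdc17, whose lowest libraries were at 0.448 to 1.13 RPM. In only 2 of the 27, Ctss and a predicted gene, were all others at or above both floors of 3 reads, so for the rest a lower level in d2 PGCLC than elsewhere was not shown in every library by the zeros alone.

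Several of the 27 are abundant genes of 1 other lineage whose few RPM elsewhere decided the count. Cd52, a surface protein of lymphocytes, was at 1729 to 2882 RPM in the B lineage and at 1.22 to 8.85 RPM and 0.794 to 10.1 RPM in the intestine and retina. Rbp3, a retinoid carrier of photoreceptors, was at 936 to 6274 RPM in the retina and at 0.448 to 11.9 RPM and 0.867 to 13.0 RPM in the intestine and B lineage. Fabp2, the fatty acid carrier of enterocytes, was at 1048 to 6595 RPM in the intestine and at 0.387 to 2.86 RPM and 0.289 to 6.26 RPM in the retina and B lineage. All 3 were at 0 in both d2 PGCLC libraries. Of the 27 lines, 11 belonged to genes with at least 100 RPM in every library of 1 lineage and a median under 10 RPM in each other lineage, a rule set after the data were seen. By this rule 33 genes marked the B lineage, and 13 of them were at 0 in both d2 PGCLC libraries, against 0 to 5 in the 8 groups of intestine and retina. Of 59 retinal genes 10 were at 0 in both, against 0 to 8 in the 7 groups of intestine and B lineage. Of 96 intestinal genes 33 were at 0 in both, against 8 to 35 in the 9 other groups. The median levels of these genes did not all go the same way. Over the retinal genes it was 2.07 RPM in d2 PGCLC and 0.578 to 1.74 RPM in the 7 groups, and over the intestinal genes 0.755 RPM against 0.254 to 0.694 RPM, so d2 PGCLC had the highest median together with many zeros. Over the B-lineage genes it was 0.371 RPM against 0.559 to 2.19 RPM, the lowest. The rule kept the median of each other lineage under 10 RPM and set no limit for d2 PGCLC. It thus favours a higher median in d2 PGCLC, and the medians are a description only. P3 intestine, with 2.23 M and 2.97 M reads, had 2 of the 33 B-lineage genes at 0 in both libraries, and the shallower d2 PGCLC library held fewer reads than any of these. The part of depth, or of RNA from other cells, in these values was not tested.

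**Figure D5:**
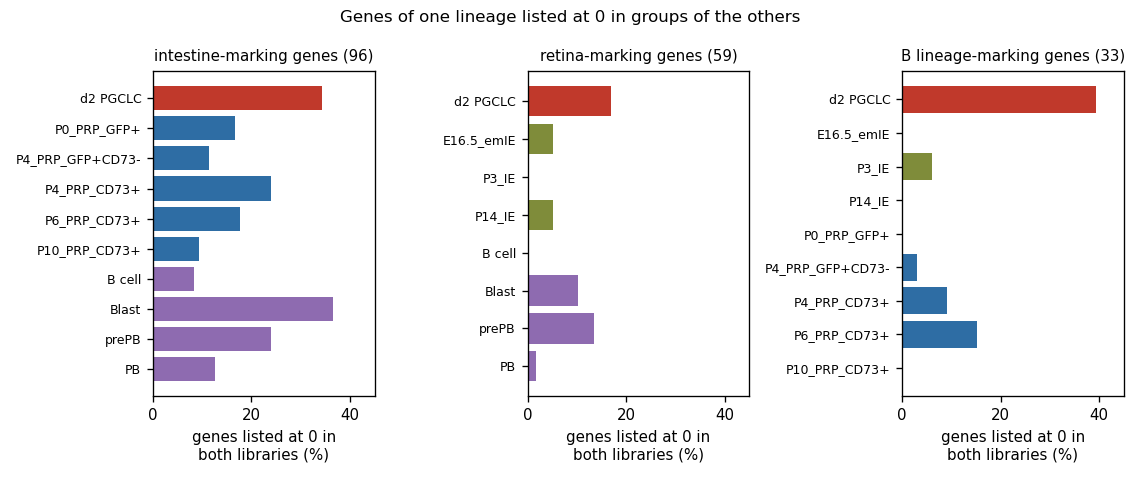
Share of lineage-marking genes listed at 0 in both libraries of each group outside that lineage (horizontal bars, in percent, from 0), for 96 intestinal, 59 retinal and 33 B-lineage genes. d2 PGCLC (red) has the largest share for retinal and B-lineage genes and the second largest, after blasts, for intestinal genes.

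In the reverse direction 3 lines (0.0119%) were at 5 RPM or more in both d2 PGCLC libraries and listed at 0 in all 24 others. Msx1, a homeobox target of BMP signals, was at 30.9 and 27.8 RPM. Dmgdh, dimethylglycine dehydrogenase of the mitochondrial one-carbon pathway, was at 9.90 and 8.16 RPM, and Crh, the precursor of corticotropin-releasing hormone, at 8.16 and 6.30 RPM. Since every other library was at 0, no fold is given. Msx1as, the antisense transcript at the Msx1 locus, was at 184 and 159.8 RPM against 0 to 1.69 RPM (median 0) in the others, and as the sources used here do not say whether strand was used, reads of the pair cannot be told apart.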

How the data were processed

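Expression of 26 mouse 3' RNA-seq libraries (13 groups of 2), amplified from 1 ng RNA per the labels' protocols, was read from 1 table whose signal values per gene the authors deposited as RPM (reads scaled to a common total). Per the submitters' processing notes, mm10 was the build and the tools were TopHat 1.4.1, Cufflinks 2.2.0, Bowtie 1.0.1 and cutadapt 1.11, while their order, the treatment of multi-mapping and stranded reads and any duplicate removal are not given in the sources used here. Of 26310 lines, 25146 had all values and were used. The 1164 others (1072 genes, 4.09% of gene lines, and 92 spike-ins) had missing values and were left out, which removes most from plasmablasts. The value of 1 read was found from the steps between low values, of which 80.3 to 90.7% were whole within 0.02 read, so reads were partly split and no count test was run. Positions and promoters are RefSeq's for GRCm38.p6, in which 24062 gene IDs were matched.

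Genes reaching 5 RPM in 2 or more libraries were tested on log2(RPM + 1) with limma-trend (limma 3.58.1, R 4.3.3), 13 group means and one spread over all 26 libraries. Calls needed a Benjamini-Hochberg adjusted p under 0.05 over the 14131 genes and a log2 difference of at least 1. Against every group, the p of a gene was the largest of its 12 two-sided p-values. Statements that libraries do not overlap or are listed at 0 carry no test. Both fits were run on simulated data with Gaussian noise. The planted differences were only in genes well expressed in every other group, so recovery of genes near 0 RPM elsewhere was not simulated. The libraries give values with a floor of 3 reads, 1.75 RPM in the shallowest, for counting error only. Named genes were the 15 higher and 15 lower furthest from the nearest group, the 10 listed at 0 and those exclusive to d2 PGCLC (predicted genes counted only), and list members that were called or differed most. List members that were not called were named for their role after their values were seen. A few genes that these rules name are not reported here. The members and lists were chosen with earlier results of these data known. Alternatives were other pseudocounts, filters, scalings, weights and libraries left out. Tables and figures used Python 3.11.15, NumPy 2.4.6, pandas 2.3.3 and matplotlib 3.10.9.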

Additional observations from a re-analysis of the deposited data

How the results depend on the processing

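The count of genes lower than every group was 35 with a pseudocount of 5 RPM, 124 with median-of-ratios scaling, 161 against only the 5 reporter-positive groups and 16 with a log2 difference of at least 2, against 78. The count higher, 346, became 614 against the 5 reporter-positive groups and 194 with the stricter difference. Against the mean of the 3 lineages, genes lower numbered 1632 with a pseudocount of 5 RPM. Lines below all 24 libraries numbered 620 with median-of-ratios scaling, and a gap of at least 1 left 387 above and 45 below. Of the lines listed at 0 in d2 PGCLC, 0 had all others at 5 RPM or more, and 19 lines were in the reverse class at 1 RPM or more. The cause of these changes was not tested, except that stricter limits keep fewer lines by construction.

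Leaving out 1 library at a time gave 97 to 347 genes higher and 51 to 78 lower than every group, the lowest without d2 PGCLC replicate 1. Of the 97 and 51, 94 and 45 were among the calls of the full set. Against the mean of the 3 lineages the ranges were 2382 to 2614 higher and 2684 to 2938 lower. For libraries that do not overlap they were 1651 to 2197 above and 351 to 623 below, for lines listed at 0 27 to 111, and for the reverse 3 to 4. By construction these untested counts cannot fall when a library is left out. In no setting did a call against the mean of the 3 lineages change sign. Of the results for single genes under all settings, 9195 kept their side of the threshold, 137 (42 genes) fell short of it and 6 (4 genes) newly passed it.

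Replicate numbers were shared between groups, and the labels do not say whether they pair samples. Deviations of same-numbered libraries correlated at -0.0573 to 0.235 over 78 pairs of groups (median 0.00761), with 2 pairs over 0.1. For pairs with d2 PGCLC the range was -0.0229 to 0.0222. Low correlations cannot show that no groups shared an animal or culture. A fit with the replicate block gave 348 higher and 78 lower than every group. Depth limits the low genes: at 1.72 M reads, a gene listed at 0 in the shallowest library may be at up to 1.75 RPM by counting error alone. Values above 0 but under 1.75 RPM there rest on fewer than 3 reads.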
